A study of Mus musculus with 10 samples.

Results

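The genes described here are 10 that encode enzymes and helpers of collagen maturation, taken by symbol from a fixed list, among the 39179 gene identifiers counted in the series. They comprise the prolyl hydroxylase gene P4ha1, the lysyl hydroxylase genes Plod1 and Plod2, the collagen chaperone gene Serpinh1, the procollagen C-proteinase genes Bmp1 and Tll1, the proteinase enhancer gene Pcolce, and the lysyl oxidase genes Lox, Loxl1 and Loxl2. All 10 symbols matched 1 identifier each, and all 10 were among the 12690 genes that passed the filter on low counts. Tll1 passed that filter on its LLC counts and Loxl2 on its Control counts, so counts and medians over the 10 genes are given as descriptions.

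RNA was sequenced from the tibialis anterior, a fast muscle of the lower leg, of 10 C57BL/6J mice per the sample labels. The labels give an age of 10 weeks for every mouse. The 6 LLC mice received Lewis Lung Carcinoma cells, a mouse lung cancer line, under the skin of both flanks. The 4 Control mice received PBS at the same sites. Muscle was collected after 23 days, when LLC mice had lost 14.4% of body weight and tumors averaged 4 g. The design text of the series differs from the labels, giving male C57BL/10 mice, 8 weeks of age and 22 days, and the groups were used as labelled. The LLC group is a single transplanted tumor line at a single late time point, and no pair-fed or early group was analysed here.

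Fibrillar collagen chains are hydroxylated on proline and lysine and folded with the help of a chaperone inside the endoplasmic reticulum. After secretion, C-proteinases of the BMP1/tolloid family cut off the C-terminal propeptide, which lets fibrils assemble, and lysyl oxidases then convert lysine side chains into the aldehydes that form crosslinks. In skeletal muscle most of this matrix is made by interstitial fibroblasts and surrounds the fibers.

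Total counts were 16693209 to 21303084 per sample, so that 3 counts correspond to 0.141 to 0.180 CPM, which is the count scaled to library size. LLC 1 stood apart, since the chi-square per degree of freedom over genes was 118 to 194 in the 5 LLC pairs that hold it, 8.36 to 60.5 in the other 10 LLC pairs and 3.89 to 8.64 in the 6 Control pairs. Without LLC 1, the same number of the 10 genes was called, 1 higher and 3 lower. The 9 markers of fast muscle fibers fixed for the comparison summed to 124794 to 131452 CPM in Control and 84423 to 135997 CPM in LLC, so the defining genes of the labelled tissue were abundant in all 10 samples. Per-sample values below are CPM scaled by TMM factors, errors of means are SD, and each sample is a separate animal.

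Of the 10 genes, 1 rose (Tll1) and 3 fell (Bmp1, Pcolce and Loxl2) in LLC, while 6 did not pass the threshold. A gene was called when the quasi-likelihood test of edgeR gave a Benjamini-Hochberg adjusted p of at most 0.05 over all tested genes and its change was at least 1.5-fold. Across all 12690 genes, 5.63% were called, 1.65% as higher and 3.99% as lower. The groups did not overlap for 4 of the 10 genes with LLC lower (Bmp1, Pcolce, Loxl2 and Plod1) and for 1 with LLC higher (Tll1), against 9.57% and 6.4% of all tested genes. DESeq2's Wald test at the same threshold called 5 of the 10, adding Lox, against 8.31% of the genes to which it gave an adjusted p. The median log2 fold change of the 10 genes was -0.25, and that of all tested genes was 0.0019. By place of action, 0 of the 4 genes that act inside the cell and 4 of the 6 that act outside it were called. The 4 intracellular genes had log2 fold changes between -0.39 and -0.0031, with 2 of them at an unadjusted p of at most 0.05 in edgeR, as were 27.4% of all tested genes, and 0 called by DESeq2. Whether the 2 sets differ in how often they were called was not tested, and the split covers these 10 genes only. In the wider list described below, P3h3 and Colgalt2, which also act inside the cell, were called lower, as were Adamts14 and Pcolce2, which act outside it. In bulk muscle, fewer cells of a type and less RNA per cell cannot be told apart.

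**Figure D1:**
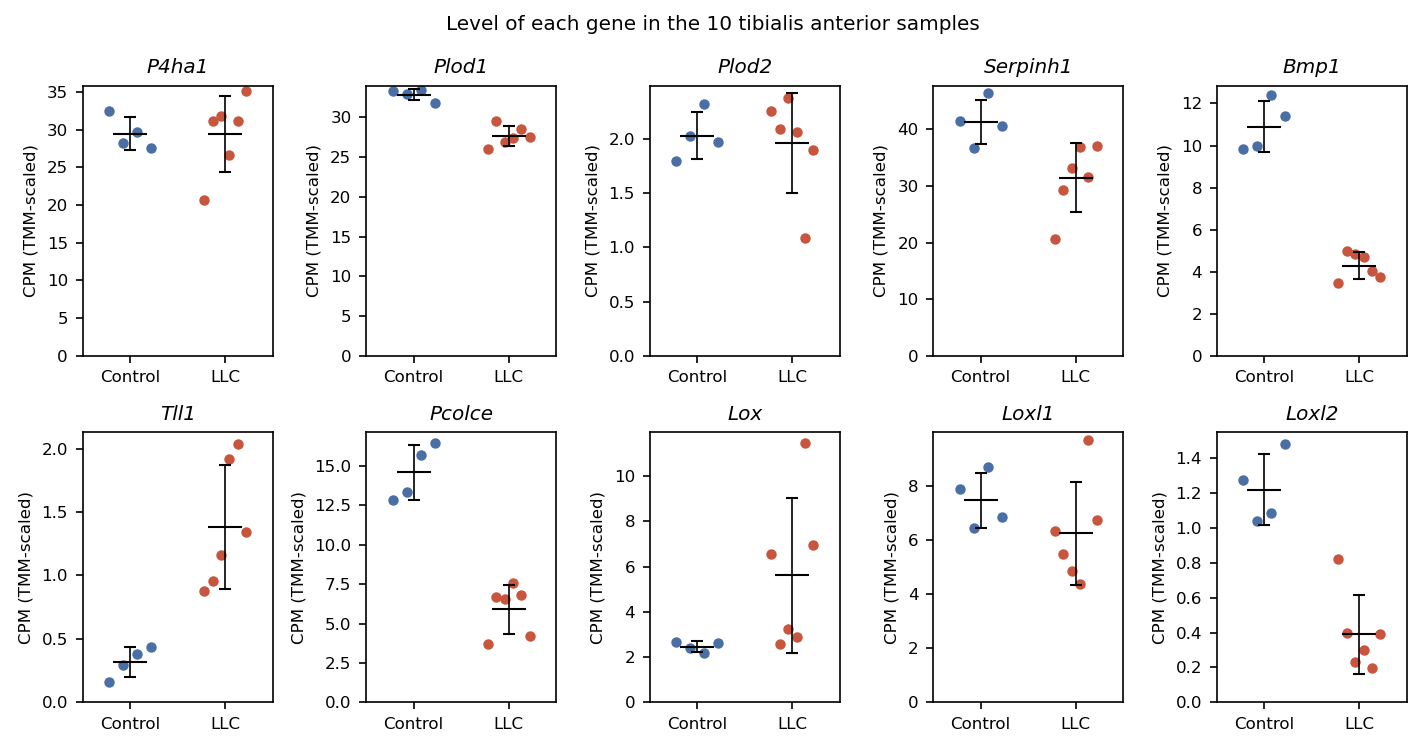
Level of each of the 10 genes by sample, in TMM-scaled CPM on a linear axis from 0, with 4 Control mice (blue) and 6 LLC mice (red). The horizontal bar is the mean and the error bar the SD. All 6 LLC points lie below every Control point for Bmp1, Pcolce, Loxl2 and Plod1 and above every Control point for Tll1.

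Bmp1 and Tll1, the 2 procollagen C-proteinase genes, moved in opposite directions. They are paralogs, and reads were 100 bp long per the labels, longer than any run of bases that annotated transcripts (GENCODE release M21, GRCm38, the build mm10) of 2 of the 10 genes share. Coordinates of genes and sequences are of this build. Over all 45 pairs of the 10 genes the longest shared run was 32 bases, between Lox and Loxl1, and the median was 12.

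Bmp1 (ENSMUSG00000022098, chr14:70474558-70520234, minus strand) encodes the bone morphogenetic protein 1 metalloproteinase, the main procollagen C-proteinase. Its level was 9.85, 9.97, 12.4 and 11.4 CPM in Control 1 to 4 and ranged from 3.45 to 4.97 CPM in LLC with a median of 4.35. Every LLC mouse was below every Control mouse. The mean was 10.9 ± 1.21 CPM in Control (n = 4) and 4.29 ± 0.638 CPM in LLC (n = 6), a log2 fold change of -1.35 ± 0.13 (SE, edgeR adjusted p = 0.000184), or 39.4% of the Control level. The spread within LLC was small, with a coefficient of variation of 14.9%, and no exon of another annotated gene overlapped those of Bmp1.

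Tll1 (ENSMUSG00000053626, chr8:64014931-64206271, minus strand) encodes tolloid-like 1, a second proteinase of the same family with a shared set of substrates. It was rarely read in Control, with 3, 6, 7 and 8 counts, or 0.159, 0.296, 0.379 and 0.438 CPM. In LLC 1 to 6 it had 17, 17, 20, 38, 41 and 24 counts, which is 0.874 to 2.03 CPM with a median of 1.25. All LLC values were above all Control values, and the lowest Control count equals the limit of detection used here. The log2 fold change was 2.11 ± 0.35 (SE, edgeR adjusted p = 0.00443), from 0.318 ± 0.121 CPM (n = 4) to 1.38 ± 0.489 CPM (n = 6). A sum of 24 counts lies behind the Control value and 157 behind the LLC value, so the size of the change rests on few reads.

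Per kilobase of exon, Bmp1 remained the more abundant of the pair in all 10 mice. The level of Bmp1 was 22.7 to 54.2 times that of Tll1 in Control and 1.73 to 4.53 times in LLC, as RPKM, which is CPM divided by the exonic length in kilobases. Tll1 thereby made up 1.81% to 4.21% of the summed RPKM of the pair in Control and 18.1% to 36.7% in LLC. The sum itself was 1.13 to 1.44 RPKM in Control and 0.501 to 0.775 RPKM in LLC, with no overlap. Within a mouse, the log2 CPM of Tll1 minus that of Bmp1 averaged -4.74 ± 0.35 in Control and -1.61 ± 0.49 in LLC, a difference of 3.13. It is given without a test, because each gene alone already separated the groups in opposite directions.

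**Figure D2:**
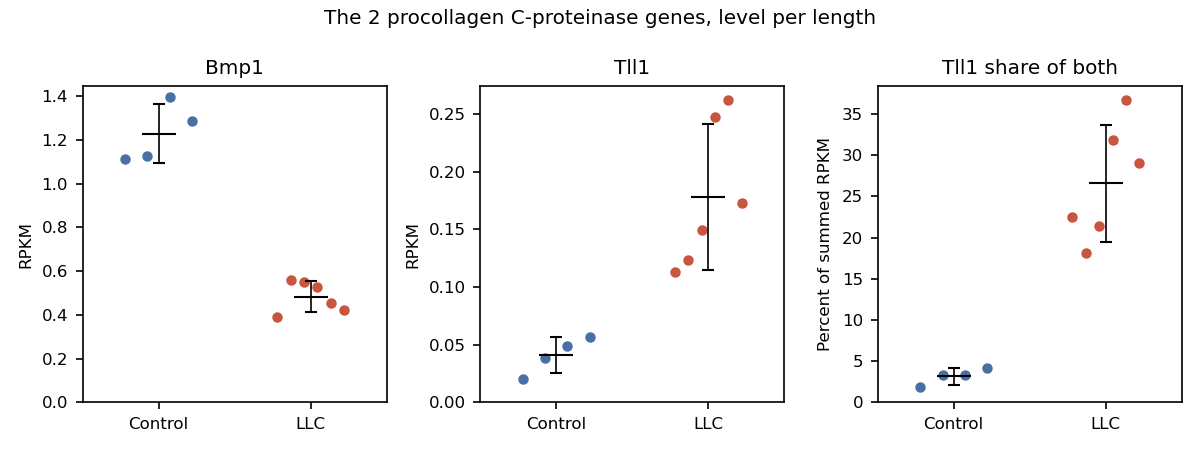
Levels per length (RPKM) of Bmp1 and Tll1 and the share of Tll1 in their sum, in percent, for 4 Control (blue) and 6 LLC (red) mice, with mean and SD, on linear axes from 0. The share was at most 4.21% in Control and at least 18.1% in LLC.

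Pcolce (ENSMUSG00000029718, chr5:137605103-137613784, minus strand) encodes the procollagen C-endopeptidase enhancer, a secreted protein without enzyme activity that binds the propeptide and speeds its removal. Control 1 to 4 had 12.9, 13.3, 15.7 and 16.5 CPM, and LLC ranged from 3.70 to 7.56 CPM with a median of 6.60. LLC 1 and LLC 6, at 3.70 and 4.19 CPM, were the lowest, and the groups did not overlap. Pcolce fell by 1.30 ± 0.19 on the log2 scale (SE, edgeR adjusted p = 0.00175), from 14.6 ± 1.76 CPM (n = 4) to 5.91 ± 1.57 CPM (n = 6). Its log2 fold change was close to that of Bmp1, the enzyme it assists. A stretch of 112 bp of its exons is shared with Fbxo24 on the same strand and 112 bp with Gm36266 on the other, and reads there could not be assigned with certainty.

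Lysyl oxidases start crosslinking. The 3 genes of the family among the 10 had log2 fold changes of unlike size and sign. Loxl1 and Loxl2 share a stretch of coding sequence in the lysyl oxidase domain, shown because 1 of the pair was called and the other was not. It is at chr9:58293596-58293683 in exon 4 of Loxl1 (minus strand) and at chr14:69689071-69690148 across the junction of exons 11 and 12 of Loxl2 (plus strand), with capitals at the bases that differ between the 2 genes.
Loxl1: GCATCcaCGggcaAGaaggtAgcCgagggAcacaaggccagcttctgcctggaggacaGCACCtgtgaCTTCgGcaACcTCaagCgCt
Loxl2: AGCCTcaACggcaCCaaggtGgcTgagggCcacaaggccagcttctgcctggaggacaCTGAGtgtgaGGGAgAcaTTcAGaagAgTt
The shared run is 28 bases long, and over the whole 88-base window 28 bases differ, leaving 68.2% identical.

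Loxl2 (ENSMUSG00000034205, chr14:69609068-69695834, plus strand) encodes lysyl oxidase-like 2, which acts on collagen IV among other substrates. Its counts were 24, 21, 20 and 27 in Control 1 to 4 and 16, 7, 4, 6, 4 and 7 in LLC 1 to 6. As CPM, Control had 1.27, 1.04, 1.08 and 1.48, and LLC ranged from 0.198 to 0.823 with a median of 0.347. All LLC mice were below all Control mice, with LLC 1 closest to them. Loxl2 fell by 1.62 ± 0.32 on the log2 scale (SE, edgeR adjusted p = 0.0123), from 1.22 ± 0.202 CPM (n = 4) to 0.39 ± 0.227 CPM (n = 6). Its exons overlap Mir6950 by 7 bp on the same strand and Gm27177 by 301 bp on the other, and with 44 counts over the 6 LLC libraries the value is imprecise.

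Lox (ENSMUSG00000024529, chr18:52516067-52529867, minus strand) encodes the founding lysyl oxidase, which crosslinks collagens I and III and elastin. Control mice lay close together at 2.65, 2.42, 2.16 and 2.63 CPM. The LLC mice had 6.53, 2.60, 3.24, 2.87, 11.5 and 6.93 CPM in LLC 1 to 6, so that LLC 2 lay within the Control range and the other 5 above it. The coefficient of variation was 9.19% in Control and 61.2% in LLC, the widest among the 10 genes in LLC. With means of 2.47 ± 0.226 CPM (n = 4) and 5.6 ± 3.43 CPM (n = 6), the log2 fold change was 1.19 ± 0.41 and did not pass in edgeR (SE, adjusted p = 0.0974). DESeq2 called it with nearly the same value (1.20, adjusted p = 0.0275), and without LLC 5, the highest mouse, DESeq2 gave 0.86 (adjusted p = 0.0859). Over the 12 alternatives other than edgeR with single samples left out, Lox ran from 0.55 to 1.20. The lowest were 0.55 with the replicate number as a block (edgeR adjusted p = 0.348) and 0.59 with limma voom (adjusted p = 0.148).

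Loxl1 (ENSMUSG00000032334, chr9:58287738-58313186, minus strand) encodes lysyl oxidase-like 1, known for its part in elastic fiber assembly. Its level was 7.89, 6.47, 8.71 and 6.85 CPM in Control 1 to 4 and 4.38 to 9.72 CPM in LLC with a median of 5.90. Of the LLC mice, 4 were below every Control mouse and LLC 5 was above every one. The log2 fold change was -0.25 ± 0.20 (SE, edgeR adjusted p = 0.419). LLC 5 thus had the highest value of the LLC group for both Lox and Loxl1, and the lowest for Loxl2 at 0.198 CPM.

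Differences between genes of the family were taken within each mouse. Loxl1 minus Lox averaged 1.56 ± 0.28 log2 CPM in Control and 0.32 ± 0.50 in LLC, a difference of -1.24. All 6 LLC mice lay below every Control mouse. The difference is given as a description, because most LLC mice already lay above every Control mouse for Lox (5) and below every one for Loxl1 (4). Loxl2 minus Lox averaged -0.97 ± 0.15 and -3.42 ± 1.01, a difference of -2.45, given as a description because the values of Loxl2 alone already separated the groups. Per length, Loxl1 was the most abundant of the 3 on average in both groups, at 2.27 and 1.90 RPKM. Lox was at 0.516 RPKM in Control and 1.17 RPKM in LLC, and Loxl2 at 0.225 and 0.072 RPKM. The other two genes of the family are Loxl3 and Loxl4. Loxl3 was lower in all 6 LLC mice than in every Control mouse, at 1.33 ± 0.142 CPM (n = 4) and 0.72 ± 0.244 CPM (n = 6), with a log2 fold change of -0.88 ± 0.26 that edgeR did not call (SE, adjusted p = 0.0642) and DESeq2 called (adjusted p = 0.0332). Loxl4 had 31 counts over the 4 Control libraries and 37 over the 6 LLC libraries, too few to be tested.

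Serpinh1 (ENSMUSG00000070436, chr7:99345376-99353239, minus strand) encodes HSP47, a chaperone of the endoplasmic reticulum that binds the folded procollagen triple helix. Its level was 41.4, 36.7, 46.3 and 40.5 CPM in Control 1 to 4 and 20.6 to 37.1 CPM in LLC with a median of 32.4. The groups overlapped through LLC 4 and LLC 6, at 36.8 and 37.1 CPM, which were above Control 2. The log2 fold change was -0.39 ± 0.15 (SE, edgeR adjusted p = 0.124).

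P4ha1 (ENSMUSG00000019916, chr10:59323296-59373304, plus strand) encodes a catalytic subunit of prolyl 4-hydroxylase, whose product stabilizes the triple helix. Control mice had 32.4, 28.2, 29.6 and 27.6 CPM and LLC mice 20.7 to 35.1 CPM with a median of 31.1. LLC 1 was the lowest and LLC 6 the highest of all 10 mice, and the groups overlapped widely. With means of 29.5 ± 2.15 CPM (n = 4) and 29.4 ± 5.06 CPM (n = 6), the log2 fold change was -0.0031 ± 0.13 (SE, edgeR adjusted p = 0.990), and its sign turned with median-of-ratios scaling (0.0067).

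Plod1 and Plod2 encode lysyl hydroxylases, of which the first acts mainly on the helical part of the collagen chain and the second on the telopeptides, the ends where crosslinks form. The stretch around their longest shared run, 15 bases, is shown as a second pair of paralogs. It spans exons 7 and 8 in both genes, at chr4:147926219-147927067 for Plod1 (minus strand) and chr9:92588654-92591329 for Plod2 (plus strand).
Plod1: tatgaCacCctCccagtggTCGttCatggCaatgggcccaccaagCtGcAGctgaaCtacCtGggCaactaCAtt
Plod2: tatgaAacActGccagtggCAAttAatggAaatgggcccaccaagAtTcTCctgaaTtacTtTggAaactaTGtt
The capitals again mark the differing bases, 18 of 75, which leaves 76.0% identical.

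Plod1 (ENSMUSG00000019055, chr4:147909753-147936767, minus strand) had the tightest values of the 10 genes, with 33.3, 32.9, 33.4 and 31.8 CPM in Control 1 to 4 and 26.0 to 29.5 CPM in LLC with a median of 27.5. The groups did not overlap, yet the difference was small, with a log2 fold change of -0.25 ± 0.07 (SE) or 84.2% of the Control level. The adjusted p was 0.0610 in edgeR and 0.0123 in DESeq2, and the change was under 1.5-fold in both. Plod2 (ENSMUSG00000032374, chr9:92542223-92608428, plus strand) had 1.80, 2.02, 2.33 and 1.97 CPM in Control 1 to 4 and 1.09 to 2.37 CPM in LLC with a median of 2.08. LLC 5 alone was well below the rest, and the other 5 LLC mice lay between 1.90 and 2.37 CPM. The log2 fold change was -0.05 ± 0.20 (SE, edgeR adjusted p = 0.884). Exons of Plod2 overlap those of Gm38391 by 346 bp on the other strand. The log2 CPM of Plod2 minus Plod1 differed by 0.17 between the groups (exact permutation p = 0.467, two-sided, over 210 regroupings). After Benjamini-Hochberg adjustment over 8 ratios the permutation p was also 0.467. Without LLC 5 the difference was 0.33 (exact permutation p = 0.0317, unadjusted).

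Ordered by length-scaled level in Control, Serpinh1 led with a mean of 16.9 RPKM, followed by P4ha1 (7.16), Plod1 (4.85), Pcolce (3.82), Loxl1 (2.27) and Bmp1 (1.23 RPKM). Below 1 RPKM came Lox (0.516), Plod2 (0.377), Loxl2 (0.225) and Tll1 (0.041 RPKM). No ranges of neighbors in this order overlapped among the 4 Control mice. In LLC the order became Serpinh1 (12.9), P4ha1 (7.15), Plod1 (4.08), Loxl1 (1.90), Pcolce (1.55), Lox (1.17), Bmp1 (0.483), Plod2 (0.364), Tll1 (0.178) and Loxl2 (0.072 RPKM). There the ranges of neighbors overlapped, except between P4ha1 and Plod1 and between Plod1 and Loxl1. Serpinh1, P4ha1 and Plod1 thus held the first places in both groups, and Tll1 and Loxl2 exchanged the last, with overlapping ranges in LLC. Together the 10 genes summed to 133 to 152 CPM in Control and 91.2 to 127 CPM in LLC.

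The substrates of these enzymes were measured in the same libraries. Of 10 tested genes for fibril-forming collagen chains and elastin, 7 fell and 0 rose in edgeR, against 3.99% and 1.65% of all tested genes. The median log2 fold change of the 10 was -1.51, and DESeq2 also called 7. They were Col1a1 (-3.08), Col1a2 (-2.77), Col3a1 (-3.09), Col5a1 (-1.97), Col5a2 (-1.80), Col5a3 (-1.21) and Col27a1 (-1.22), while the elastin gene Eln had a log2 fold change of -0.02. Col1a1, the gene of the main chain of type I collagen, was at 45.8 ± 6.5 CPM in Control (n = 4) and 5.39 ± 2.51 CPM in LLC (n = 6), with an edgeR adjusted p of 0.000184. Set against Col1a1 in the same mouse, the 4 maturation genes compared were all higher in LLC. The difference in log2 CPM to Col1a1 was larger by 2.77 for Serpinh1, by 3.16 for P4ha1, by 1.86 for Pcolce and by 4.13 for Lox. In each case all 6 LLC mice lay above every Control mouse. Serpinh1 and P4ha1, which were not called, are given without a test, because Col1a1 alone fell by far more than either changed. Lox was left without a test because it and Col1a1 lay on opposite sides in nearly all LLC mice. For Pcolce, which fell as Col1a1 did, the exact permutation p was 0.00952 (two-sided, the lowest value that 210 regroupings allow). Adjusted over all 8 ratios, this permutation p was 0.0109. The 8 include the ratios given without a test, which share the lowest p and so keep the adjusted value low. Pcolce and Col1a1 therefore fell unequally. Per length, Serpinh1 was above Col1a1 in both groups, with means of 16.9 and 6.97 RPKM in Control and of 12.9 and 0.822 RPKM in LLC.

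**Figure D3:**
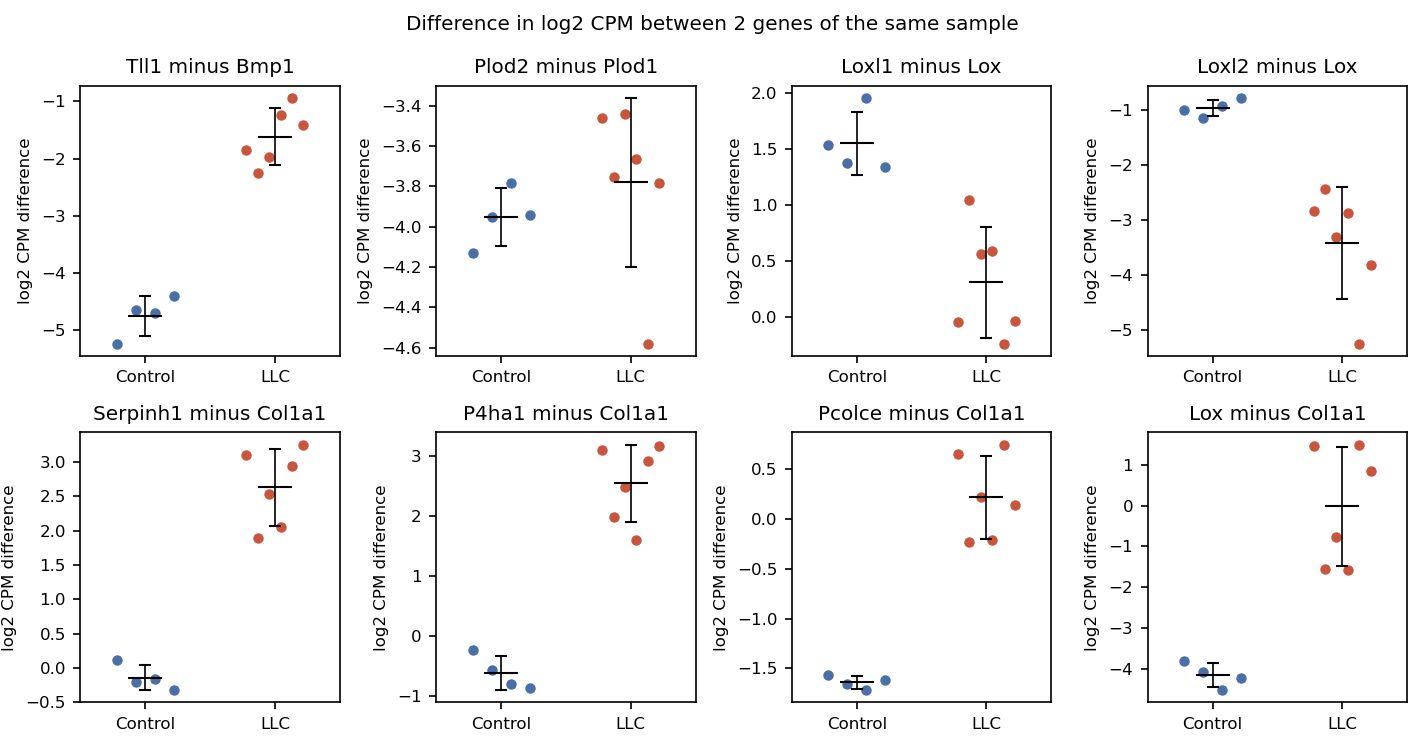
Difference in log2 CPM between 2 genes of the same mouse for 8 gene pairs, 4 Control (blue) and 6 LLC (red), with mean and SD. The axes do not start at 0. The groups are separate in 7 of the 8 panels and overlap for Plod2 minus Plod1.

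C-proteinases of this family also cut proteins other than collagen. Of 14 such substrates and partners, 6 fell and 0 rose in edgeR, against 3.99% and 1.65% of all tested genes. The median log2 fold change of the 14 was -0.39, and DESeq2 called 6. These were the proteoglycan genes Bgn (-0.85), Dcn (-1.36), Ogn (-1.36) and Hspg2 (-0.60), the fibronectin gene Fn1 (-1.08) and the periostin gene Postn (-3.09). Of the 14, 3 had a log2 fold change above 0, up to 0.26, and 0 of those were called.

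In edgeR, the other tested genes of collagen maturation were either called lower or not called. Of 25 listed, 21 were tested, with 0 higher, 5 lower and 16 not called in edgeR. Of all tested genes, 1.65% were called higher and 3.99% lower. The median log2 fold change was -0.14, and DESeq2 called 6. In edgeR 8 of 21 had an unadjusted p of at most 0.05, against 27.4% of all tested genes. The groups did not overlap for 8 of the 25 with LLC lower and 2 with LLC higher, with the untested genes of the list included. The shares over all tested genes were 9.57% and 6.4%. Without Control 1 edgeR called 2 of the 21, and without Control 2 or Control 3 it called 3. Those that fell were Adamts14 (-1.72), a procollagen N-proteinase, Creb3l1 (-1.39), a transcription factor of secretory cells, Colgalt2 (-1.26), a collagen galactosyltransferase, P3h3 (-1.24), of the prolyl 3-hydroxylase family, and Pcolce2 (-1.14), the paralog of Pcolce. P4ha3, Tll2 and Adamts3 also had too few counts to be tested. Tll2, the third gene of the tolloid branch, had 1 count over the 4 Control libraries and 2 over the 6 LLC libraries, below the limit of detection. Lox, Plod2 and P4ha1 are known targets of hypoxia signalling, and of 14 other hypoxia-responsive genes 0 were called in edgeR and 1 in DESeq2. In edgeR 4 of the 14 had an unadjusted p of at most 0.05, against 27.4% of all tested genes. Their log2 fold changes ran from -0.78 to 1.90, with a median of -0.20. For 4 of the 14 all LLC mice were below every Control mouse, against 9.57% of all tested genes. The list summed to 4199 to 4382 CPM in Control and 2250 to 3879 CPM in LLC. Without LLC 1 edgeR called 1 of the 14 and without LLC 2 it called 2.

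**Figure D4:**
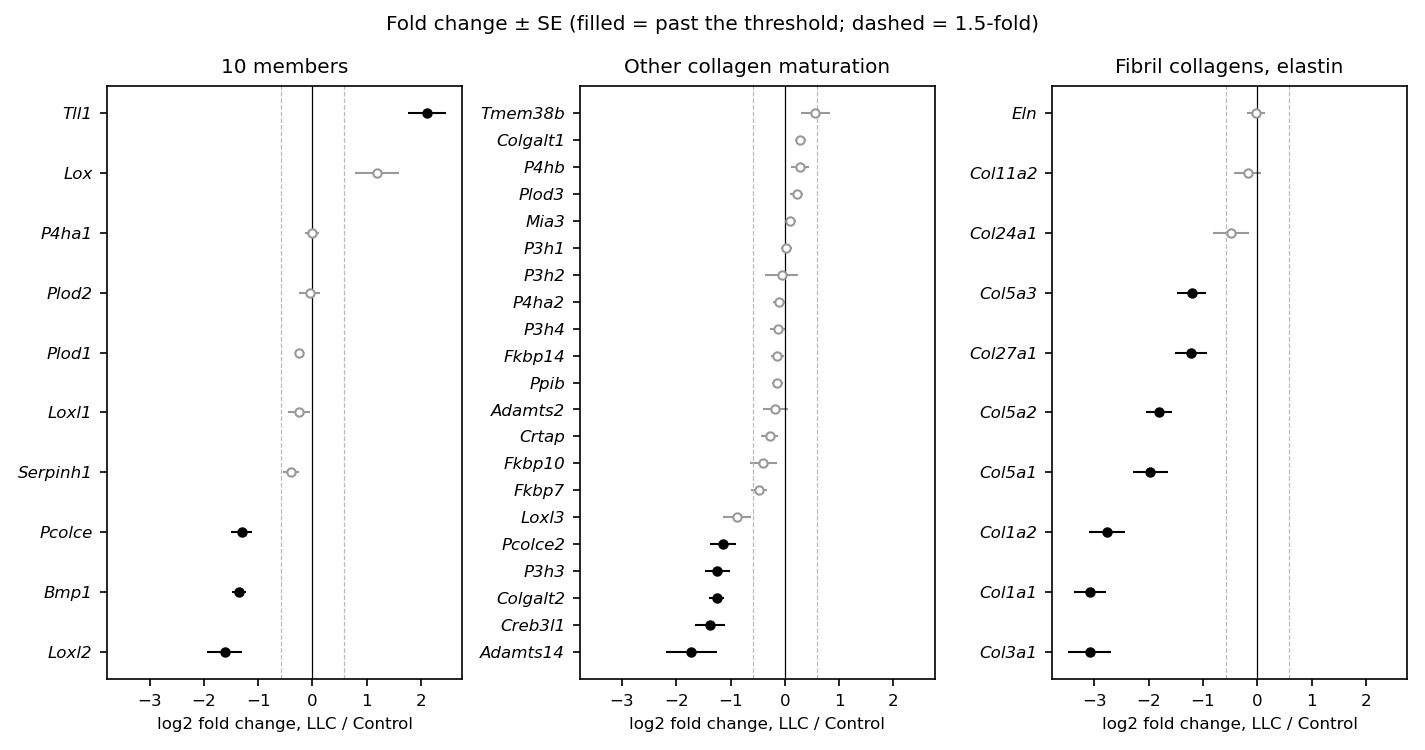
Log2 fold change of LLC over Control with its SE for the 10 genes, 21 other tested genes of collagen maturation and 10 tested genes of fibril-forming collagens and elastin. Filled points passed the threshold and dashed lines mark 1.5-fold. In the first panel 1 filled point lies to the right of 0 and 3 to the left, and in the other panels all filled points lie to the left.

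Markers of several cell types also differed between the groups. The calls below stand against 1.65% of all tested genes called higher and 3.99% called lower. Of 10 markers of fibroblasts and fibro-adipogenic progenitors, 8 fell and 1 rose (Ly6a, 0.95), with a summed level of 319 to 391 CPM in Control and 163 to 230 CPM in LLC. Among them Pdgfra, the marker that defines these progenitors, fell by 1.40 and Dpt by 1.84 on the log2 scale. Tendon markers summed to 61.9 to 68.6 CPM in Control and 8.90 to 28.9 CPM in LLC, and 3 of the 4 tested fell (Tnmd, Thbs4 and Fmod). Of 6 pericyte and smooth muscle markers, 4 fell (Cspg4, Pdgfrb, Kcnj8 and Rgs5), with sums of 425 to 477 and 249 to 345 CPM. Of 8 endothelial markers, Kdr fell, and the list summed to 341 to 417 and 324 to 385 CPM. All LLC mice were below every Control mouse for 4 of the 8 and above for 1, against 9.57% and 6.4% of all tested genes. When no fold was asked for, 5 of the 8 had an edgeR adjusted p of at most 0.05, against 6.99% of all tested genes. Kdr was not called without Control 1, Control 3, Control 4 or LLC 6. Neutrophil markers moved the other way, with all 9 tested higher and a summed level of 1.38 to 2.67 CPM in Control and 35.4 to 77.7 CPM in LLC. Ly6g, which defines neutrophils, had 0 counts in Control and 16 in LLC. Among macrophage markers 1 of 6 tested fell (Mrc1), with sums of 13.7 to 20.4 and 9.38 to 16.2 CPM, and among satellite cell markers 2 of 5 fell (Pax7 and Myf5), with sums of 102 to 117 and 104 to 121 CPM, and leaving out single samples reduced the 2 calls to 1 for 7 of the 10 samples. No marker was at 0 in every sample. The part of these cell types in the values of the 10 genes was not tested.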

How the data were processed

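The authors sequenced stranded total RNA libraries, mapped reads to mm10 with TopHat2 and counted them with HTSeq, and deposited whole-number counts per gene, one file per sample, not normalized. Their methods name RefSeq genes and HTSeq's default settings, but the files list Ensembl identifiers. The annotation release is not given in the sources used here, whether the default strand setting holds for these files was not established, and counts where genes overlap are uncertain. Replicates follow the labels. p-values compare the difference between the groups with the spread between animals. Symbols, coordinates and exonic lengths came from GENCODE release M21 (GRCm38), which held 37693 of 39179 identifiers.

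The 2 groups were tested with the quasi-likelihood F test of edgeR (version 4.0.16 in R 4.3.3) after filterByExpr and TMM scaling, with group as the only term and Benjamini-Hochberg adjustment over all tested genes. Alternatives were DESeq2, the tool of the study, here in version 1.42.0, and limma voom (limma 3.58.1). RPKM is TMM-scaled CPM per kilobase of exon. Gene ratios used log2 CPM with a prior count of 2. Intervals were not computed, and the floor of 3 counts covers counting error only. Scripts were tested on simulated data. The members and lists were chosen with earlier results of these data known. All 10 genes were to be named, and from each other list those called, at most 6, by size of change. Eln, Loxl3, Loxl4, Ly6g and the untested genes were named after their values were seen. The coding sequence of 1 pair of paralogs is not reported here.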

Additional observations from a re-analysis of the deposited data

Results flagged for a closer look

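Values that stood far from the rest of their group (Dixon's gap over range above 0.625 for 6 samples) were found in 3 of 36 groups of samples tested, where chance gives 1.8. Loxl2 in LLC 1, at 0.823 CPM, was far above the other 5 LLC mice, with a gap of 0.685 of the range. Plod2 in LLC 5, at 1.09 CPM, was far below the other LLC mice, with a gap of 0.631 of the range. The log2 CPM of Plod2 minus Plod1 in LLC 5, at -4.58, was likewise the lowest, with a gap of 0.699 of the range.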

How the results depend on the processing

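Bmp1 and Pcolce were called under all 22 alternatives and Tll1 under all 21 that tested it, Loxl2 under 20 of 21 and Lox under 2 of 22. Over all genes, edgeR called 715 (209 higher, 506 lower). DESeq2 called 388 higher, and 2 of the 10 genes higher. With at least 10 counts in every sample, which leaves Loxl2 and Tll1 untested, 475 genes were called, 116 of them higher, and of the 10 genes 2, with 0 higher. With an unadjusted p and the fold, 1572 genes passed (626 higher, 946 lower), with 2 of the 10 higher. Leaving out single samples gave 415 (without Control 3) to 966 (without LLC 1) calls, 110 to 288 higher and 284 to 678 lower, and 4 of the 10 genes each time (1 higher, 3 lower).

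The replicate numbers belong to different animals, and the deviations of same-numbered samples correlated at -0.08 to 0.13, so they do not pair samples. With the replicate number as a block, in which LLC 5 and LLC 6 add nothing to the group term, 112 genes were called (42 higher, 70 lower), and Loxl2 was not (-1.50, adjusted p = 0.159).

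The sign of P4ha1 changed under DESeq2 (0.0066), voom (0.060), median-of-ratios factors (0.0067) and no filter (0.0068), and over single samples left out it ran from -0.059 to 0.088. Plod2 gave 0.021 under voom, 0.12 with the replicate block and 0.085 by DESeq2 without LLC 5, chosen after seeing the data, and -0.11 to 0.075 over samples left out. Plod2 minus Plod1 ran from 0.10 to 0.33. For these genes the cause was not tested. Depth limits Tll1, Loxl2 and Plod2, each with under 50 counts in every library.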
